A study of Mus musculus with 8 samples.

Results

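Matrix metalloproteinases (MMPs) are zinc-dependent enzymes that cut collagen, gelatin, elastin and other matrix proteins, and the tissue inhibitors of metalloproteinases (TIMPs) block them by occupying the active site. Most MMPs are secreted as inactive zymogens, while membrane-type MMPs stay on the cell surface and activate others. In the liver this system is known for its part in scar turnover: stellate cells that become myofibroblasts make TIMPs beside their collagen, and macrophages are a known source of several MMPs. The genes followed here were chosen by name, with earlier results of these data known. They are Timp1, Timp2, Timp3, Mmp2, Mmp3, Mmp9, Mmp12, Mmp13, Mmp14 and Mmp19. All 10 were found among the 45777 genes of the deposited table, and all 10 had enough reads to be tested.

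The libraries came from primary hepatic stellate cells of male wild-type C57BL/6 mice, which store vitamin A beside the sinusoids of the liver. All cells were transfected during activation, those of 4 samples with a control siRNA (siControl) and those of 4 with an siRNA against the kinase PAK4 (siPAK4), and the comparison asks which transcripts change when this kinase is silenced. The sources used here do not give ages, the number of animals, the time after transfection or the siRNA sequences, and no label says that the 4 samples of a group came from separate animals or cultures. The p-values therefore rest on a spread that may be technical. Where 4 values of a group are listed, they stand in the order of the replicate numbers.

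The libraries held 55728583 to 61535063 counts. Pak4, the targeted gene, had 16.2 to 18.6 CPM (counts scaled to library size) in siControl and 5.17 to 7.73 in siPAK4, which left it at 36.7% of siControl (log2 fold change −1.44, adjusted p = 9.4e-06). siPAK4 replicate 3 stood apart from the other siPAK4 libraries on the second principal component, which held 13.7% of the variance. The RNA also held markers of other liver cells, and in bulk RNA fewer cells of a type and less RNA per cell cannot be told apart. Of the stellate cell markers, Reln (30.9 CPM in siControl), Pdgfrb (27.5 CPM) and Des were expressed. Rgs5 (1.35 CPM in siControl) and Colec11 (0.55 CPM) were low, and Lrat had at most 22 counts in any library. The 14 macrophage markers summed to 17565 to 20162 TPM (a unit that also corrects for transcript length) in siControl, mostly Lyz2.

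All 3 inhibitor transcripts fell with siPAK4, while the proteases went different ways: Mmp2 fell, Mmp3 and Mmp13 rose, and Mmp9, Mmp12, Mmp14 and Mmp19 did not pass the test. In total 4 of the 10 genes were lower and 2 higher at an adjusted p below 0.05 (edgeR quasi-likelihood test, Benjamini-Hochberg adjustment over 17975 tested genes). Among all tested genes 14.5% were lower and 12.4% higher, 26.9% in either direction. Because the 10 genes were chosen with earlier results known, this comparison is not independent of the data. The median log2 fold change of the 10 genes was −0.21, beside 0.005 over all tested genes. The 4 siControl and 4 siPAK4 values did not overlap for 5 of the 10 genes, beside 28.8% of all tested genes. With library totals alone in place of TMM scaling, 67.6% of the genes past the test were higher, against 46.1% here, and the same 6 of the 10 genes passed in the same directions.

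**Figure D1:**
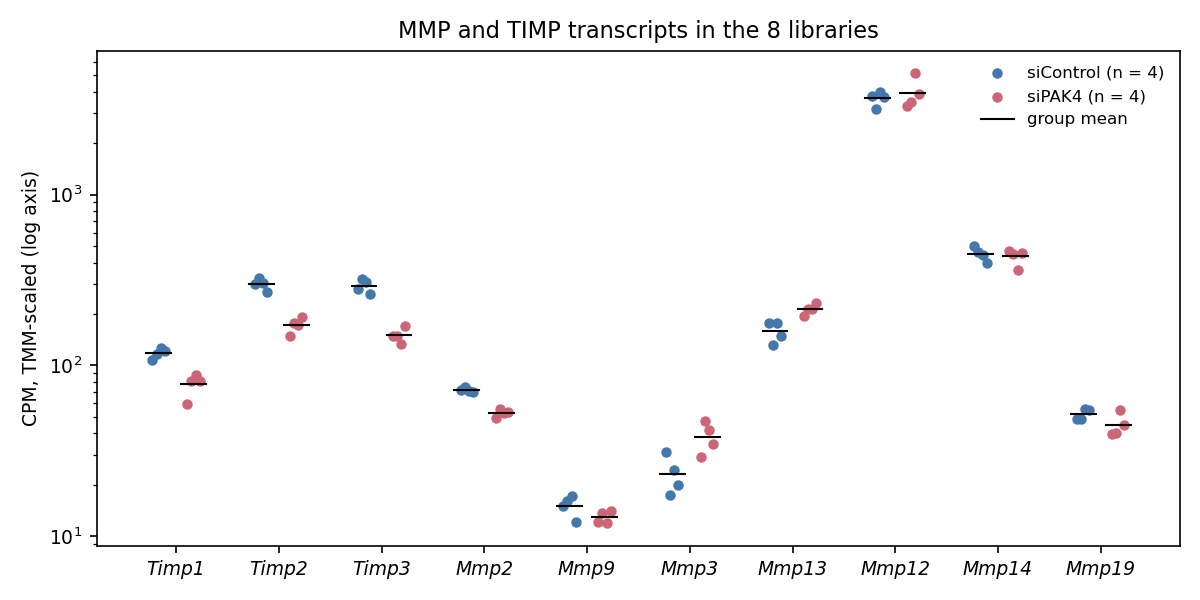
CPM of the 10 MMP and TIMP genes (log axis), with 1 point per library and a bar at the mean of each group of 4. The siPAK4 points of Timp1, Timp2, Timp3 and Mmp2 lie below all siControl points, and those of Mmp13 lie above them, while Mmp12 is the most abundant in both groups.

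Timp1 encodes a secreted inhibitor that is a standard marker of fibrogenic stellate cells (NCBI gene 21857, mm10 chromosome X, 20870166 to 20874737). It had 107, 116, 126 and 121 CPM in the siControl libraries and 59.5, 81.3, 88.0 and 80.7 CPM in the siPAK4 libraries. Every siPAK4 library was below every siControl library, and siPAK4 replicate 1 was the lowest of all. The siPAK4 mean of 77.4 ± 12.3 CPM was 65.9% of the siControl mean of 118 ± 7.92 CPM (SD, n = 4). The log2 fold change was −0.60, with a 95% interval of −0.83 to −0.38 and an adjusted p of 0.0014. The gene lies inside Syn1 on the opposite strand, and Syn1 had 88 to 182 counts, against 3445 to 7423 for Timp1.

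Timp2, whose product both inhibits MMPs and bridges the zymogen of MMP2 to MMP14 on the cell surface (gene 21858, chromosome 11, 118301061 to 118355411), fell as well. Its levels were 300.4, 323, 305 and 269.9 CPM in the siControl libraries and 149, 178, 173 and 193 CPM in the siPAK4 libraries. The lowest siControl library was well above the highest siPAK4 library. The log2 fold change was −0.79 (SE 0.0808, 95% interval −0.97 to −0.61, adjusted p = 3.6e-05). The small gene Cep295nl lies within Timp2 on the same strand. It had 155 to 292 counts and also fell (log2 fold change −0.67, adjusted p = 0.0024), and the sources used here do not say how reads in the shared stretch were assigned.

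Timp3 encodes the inhibitor that stays bound to the matrix and also blocks several ADAM and ADAMTS proteases (gene 21859, chromosome 10, 86300412 to 86349505). The siControl libraries had 279.9, 319, 309.7 and 263 CPM, and the siPAK4 libraries had 148, 148, 133 and 171 CPM. The groups were apart by more than the spread within either, with siPAK4 at 51.2% of siControl (log2 fold change −0.97, SE 0.084, 95% interval −1.15 to −0.78, adjusted p = 1.3e-05). The intervals of the 3 TIMP genes overlap from one to the next, and differences between their changes were not tested. Timp3 lies inside Syn3 on the opposite strand, and Syn3 had 34 to 97 counts.

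Of the gelatinases, which cut denatured collagen and basement membrane collagen, Mmp2 is the one made by fibroblast-like cells (gene 17390, chromosome 8, 92827290 to 92853421). It had 71.9, 74.4, 71.2 and 70.2 CPM in the siControl libraries and 49.4, 55.7, 52.7 and 53.2 CPM in the siPAK4 libraries. The spread within each group was small and the groups were apart (log2 fold change −0.45, SE 0.0541, 95% interval −0.57 to −0.33, adjusted p = 0.00012). Mmp9, the gelatinase typical of leukocytes (gene 17395, chromosome 2, 164940326 to 164955850), was the least abundant of the 10. It had 15.0, 16.1, 17.2 and 12.1 CPM in siControl and 12.1, 13.6, 11.9 and 14.0 CPM in siPAK4, so the groups overlapped. Its log2 fold change of −0.23 did not pass (95% interval −0.46 to 0.01, adjusted p = 0.15). Without siControl replicate 4, the lowest of its group, it passed (−0.32, adjusted p = 0.027; adjusted p from 0.027 to 0.51 over all alternatives).

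Mmp3, stromelysin-1, cuts many non-fibrillar matrix proteins and activates other MMP zymogens (gene 17392, chromosome 9, 7445822 to 7455975). Its levels were 31.2, 17.5, 24.3 and 19.9 CPM in the siControl libraries and 29.1, 47.0, 41.9 and 34.4 CPM in the siPAK4 libraries. The groups overlapped, because siControl replicate 1 was above siPAK4 replicate 1. Its mean of 38.1 ± 7.90 CPM in siPAK4 was above the 23.2 ± 6.03 CPM of siControl (log2 fold change 0.71, 95% interval 0.31 to 1.12, adjusted p = 0.015), with the widest interval among the 10. The call was lost without siPAK4 replicate 3 (0.67, adjusted p = 0.087), and the adjusted p ran from 0.00041 to 0.087 over all alternatives. Of all 50-base stretches in the annotated Mmp3 transcripts, 7.99% also occur in Mmp10, its closest paralog, so reads could be split between these genes. The other 9 genes shared no such stretch with any family member.

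Mmp13 is the main interstitial collagenase of rodents, able to cleave intact fibrillar collagen (gene 17386, chromosome 9, 7272514 to 7283333). It had 177, 132, 176 and 148 CPM in the siControl libraries and 194, 213, 213 and 230.4 CPM in the siPAK4 libraries. Every siPAK4 library was above every siControl library. The log2 fold change was 0.42 (SE 0.0938, 95% interval 0.22 to 0.63, adjusted p = 0.0061).

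Mmp12, the macrophage metalloelastase, was by far the most abundant of the 10 (gene 17381, chromosome 9, 7344397 to 7360461). It had 3797, 3156, 3977 and 3734 CPM in the siControl libraries and 3286, 3477, 5142 and 3899 CPM in the siPAK4 libraries. The groups overlapped, and siPAK4 replicate 3 was above all others. The log2 fold change of 0.11 did not pass (95% interval −0.18 to 0.39, adjusted p = 0.59), and it was −0.05 without siPAK4 replicate 3.

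Mmp14, the membrane-type protease that activates the MMP2 zymogen and itself cuts collagen (gene 17387, chromosome 14, 54431598 to 54442456), did not pass either. It had 502, 461, 445 and 398 CPM in the siControl libraries and 467, 452, 363 and 456 CPM in the siPAK4 libraries. The ranges overlapped almost fully, with siPAK4 replicate 3 below the other 7 libraries (log2 fold change −0.05, 95% interval −0.25 to 0.14, adjusted p = 0.71). The sign turned with library totals (0.04) and without siPAK4 replicate 3 (0.02). Mmp19, a secreted MMP of wide distribution (gene 58223, chromosome 10, 128790910 to 128800827), had 48.2, 48.6, 55.3 and 54.5 CPM in siControl and 39.6, 40.2, 54.8 and 44.9 CPM in siPAK4. In siPAK4, 3 libraries lay below all siControl libraries and replicate 3 lay among them (log2 fold change −0.20, 95% interval −0.42 to 0.01, adjusted p = 0.16). Without siPAK4 replicate 3 it passed as lower (−0.32, adjusted p = 0.0045; adjusted p from 0.0045 to 0.45 over all alternatives). Tmem198b overlaps the end of Mmp19 on the opposite strand and had 645 to 784 counts, against 2292 to 3292 for Mmp19.

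**Figure D2:**
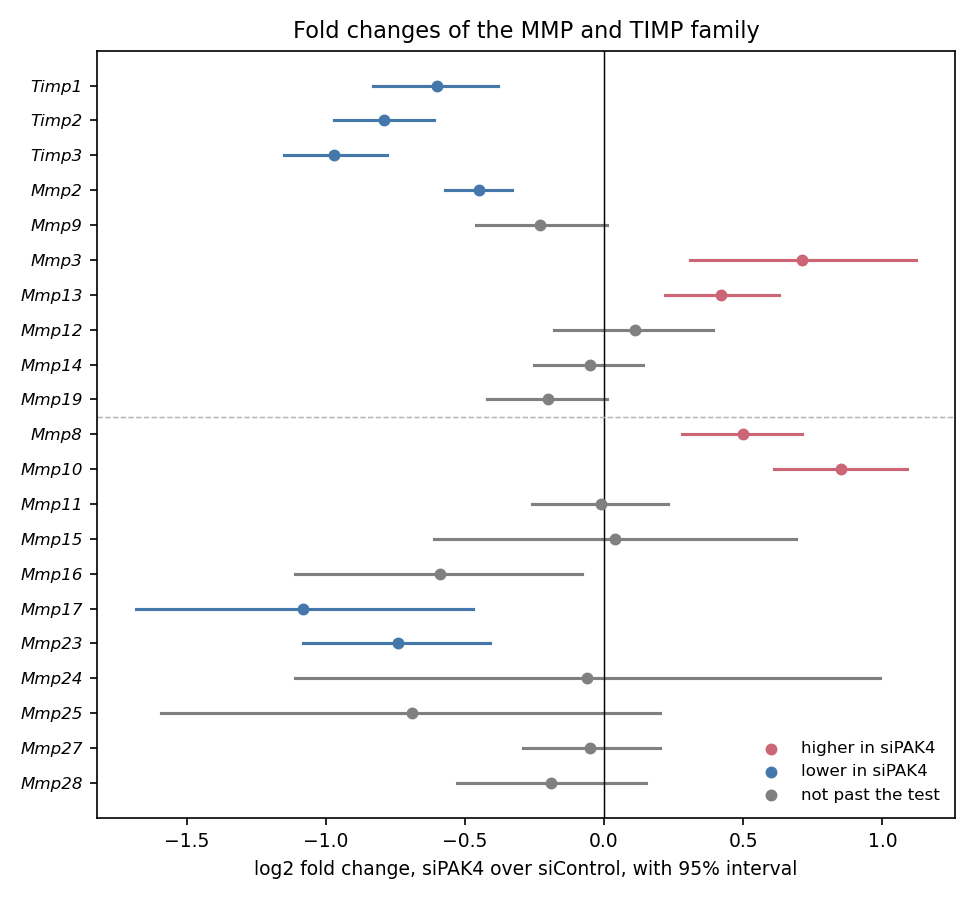
Log2 fold change of siPAK4 over siControl with its 95% interval for the 10 genes (above the dashed line) and the 11 other tested family genes (below it), coloured by the call. The 3 TIMP genes and Mmp2 lie left of 0 and Mmp3 and Mmp13 right of it, and among the others Mmp8 and Mmp10 lie right and Mmp17 and Mmp23 left.

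Levels of different genes were compared on the TPM scale. In siControl the order was Mmp12 (2169 ± 221 TPM), Timp1 (283 ± 16.4), Mmp14 (254 ± 30.0), Timp2 (177 ± 15.9), Timp3 (134 ± 13.3), Mmp13 (127 ± 19.6), Mmp2 (49.7 ± 2.75), Mmp19 (32.6 ± 1.89), Mmp3 (27.7 ± 7.72) and Mmp9 (10.2 ± 1.63; SD, n = 4). Among neighbours in that order, Timp1 and Mmp14, Timp3 and Mmp13, and Mmp19 and Mmp3 overlapped between libraries, and the other neighbours did not. In siPAK4 the order was Mmp12 (2385 ± 357 TPM), Mmp14 (253 ± 40.6), Timp1 (191 ± 25.2), Mmp13 (174 ± 11.1), Timp2 (105 ± 9.97), Timp3 (70.5 ± 8.50), Mmp3 (46.5 ± 10.3), Mmp2 (37.7 ± 3.08), Mmp19 (29.0 ± 2.76) and Mmp9 (8.94 ± 0.972). There Mmp14, Timp1 and Mmp13 overlapped in sequence, as did Timp3, Mmp3 and Mmp2. Mmp13 overlapped with Timp3 and lay below Timp2 in siControl, and it lay above both in every siPAK4 library.

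The summed TPM of the 3 TIMP genes was 578, 618, 628 and 552 across siControl and 323, 401, 358 and 383 across siPAK4, without overlap. Timp1 made 45.4% to 51.0% of that sum in siControl and 48.0% to 56.5% in siPAK4. The 7 MMP genes summed to 2349 to 2886 TPM in siControl and 2665 to 3387 in siPAK4, and Mmp12 alone made 79.6% to 82.9% and 78.8% to 85.8% of it. Without Mmp12, the MMP sum was 441 to 566 TPM in siControl and 480 to 602 in siPAK4, so these ranges overlapped. The ratio of that sum to the TIMP sum was 0.777 to 0.979 in siControl and 1.34 to 1.74 in siPAK4. Mmp8 (314 ± 38.8 TPM in siControl and 452 ± 27.7 in siPAK4) and Mmp10 (59.3 ± 10.3 and 110 ± 14.8) are not among the 10. They rose and are left out of these sums and ratios. The overlap of the MMP sums, the share of Mmp12 and the ratio therefore hold for the 7 chosen MMP genes only. The sums and ratios describe transcripts, not proteins or enzyme activity, and carry no test.

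A ratio within a library does not depend on how libraries are scaled. Mmp14 TPM over Timp2 TPM, the pair that acts on the MMP2 zymogen, was 1.59, 1.36, 1.39 and 1.40 across siControl and 2.98, 2.43, 2.00 and 2.25 across siPAK4. Every siPAK4 ratio was above every siControl ratio, with siPAK4 replicate 1 the highest. Mmp2 over Timp2 was 0.271 to 0.297 in siControl and 0.325 to 0.390 in siPAK4, also without overlap, although both transcripts fell.

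**Figure D3:**
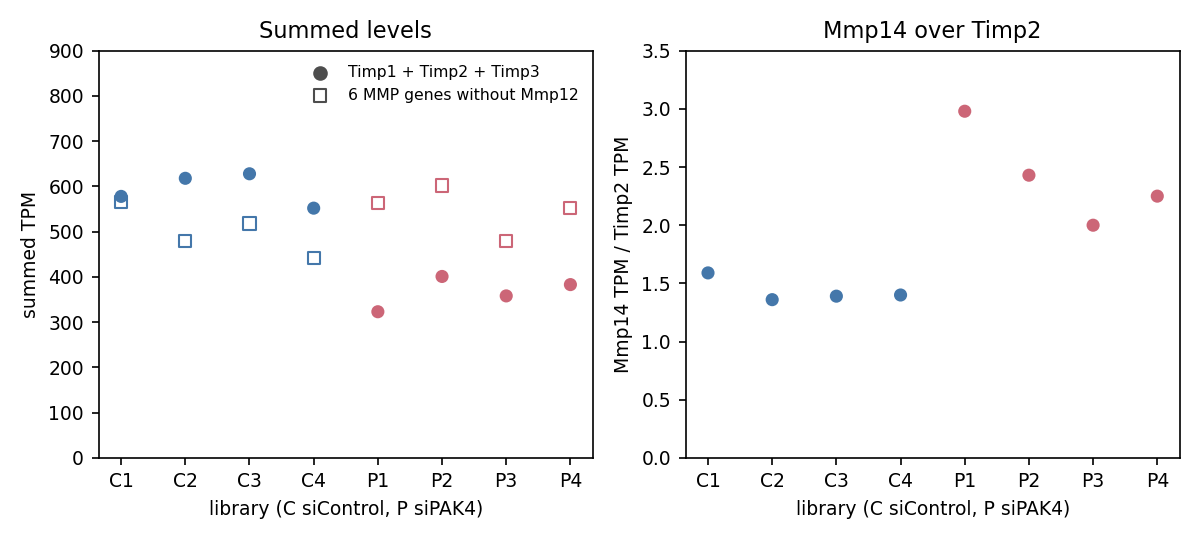
Left, summed TPM of the 3 TIMP genes (filled circles) and of the 6 chosen MMP genes other than Mmp12 (open squares) in each library. Right, Mmp14 TPM divided by Timp2 TPM. The TIMP sums are at or above 552 in siControl and at or below 401 in siPAK4, and the ratio is at most 1.59 in siControl and at least 2.00 in siPAK4.

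Mmp3, Mmp12 and Mmp13 belong to a cluster of 10 MMP genes on chromosome 9, between 7272514 and 7699585. Its 6 expressed genes, in order, are Mmp13, Mmp12, Mmp3, Mmp10, Mmp8 and Mmp27. Mmp10, stromelysin-2, had 57.9, 39.6, 48.1 and 46.4 CPM in the siControl libraries and 74.9, 97.9, 85.1 and 88.8 CPM in the siPAK4 libraries (log2 fold change 0.85, 95% interval 0.61 to 1.09, adjusted p = 0.0002). Mmp8, the collagenase first known from neutrophils, had 364, 305, 410.2 and 359.8 CPM in the siControl libraries and 453, 469, 591 and 514 CPM in the siPAK4 libraries (0.50, 95% interval 0.28 to 0.71, adjusted p = 0.0038). Both genes rose, with all siPAK4 libraries above all siControl libraries. Mmp27, next to Mmp8, did not pass (log2 fold change −0.05, 95% interval −0.29 to 0.20, adjusted p = 0.80, and 0.04 with library totals). With Mmp3 and Mmp13, 4 of the 6 expressed cluster genes rose, beside 12.4% of all tested genes. Of these, Mmp3 overlapped between the groups, lost its call under 3 of 20 alternatives and shares sequence with Mmp10. Mmp12, which lies between Mmp13 and Mmp3, did not pass. Mmp1a, Mmp7 and Mmp20 had no read in any library, which allows up to 0.0542 CPM in any library (3 counts on the TMM-scaled library size, counting error only), and Mmp1b had at most 9 counts.

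**Figure D4:**
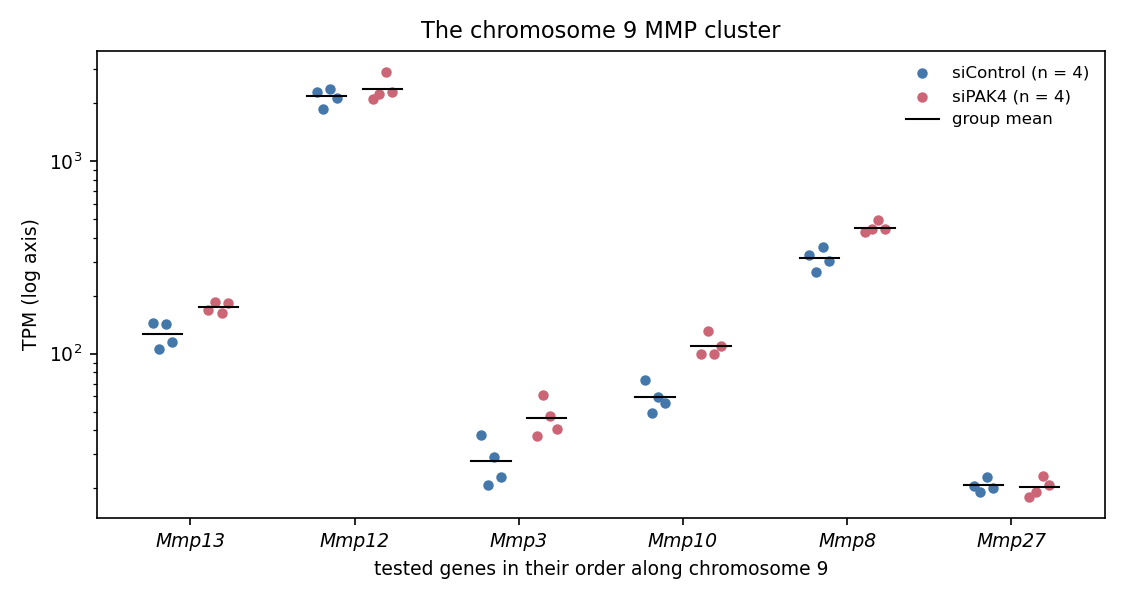
TPM (log axis) of the 6 tested genes of the chromosome 9 cluster in their order, with 1 point per library and a bar at each group mean. The siPAK4 points of Mmp13, Mmp10 and Mmp8 all lie above the siControl points, those of Mmp3 overlap them at 1 library, and those of Mmp12 and Mmp27 are mixed with them.

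The binding motif of AP-1, the FOS and JUN dimer long known to act on MMP promoters, was searched in the 250 bases before the transcription start of these genes, because several cluster genes rose together. The motif searched was TGANTCA, which reads the same on both strands. RefSeq promoter entries (GRCm38.p6, the build also called mm10) matched 7 of the 10 genes: Timp1, Timp2, Timp3, Mmp3, Mmp12, Mmp13 and Mmp14. The motif was found for 3 of them, all in the chromosome 9 cluster, and for Mmp10. It occurs in 6.75% of all 32851 promoter windows of that length and in 5.16% of the 16418 windows of tested genes. The stretches below show it in capitals with 20 bases on each side, 5′ to 3′ on the plus strand.
Mmp13, chr9:7272459-7272505, motif starting 35 bases before the start site: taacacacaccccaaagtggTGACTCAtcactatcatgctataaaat
Mmp12, chr9:7347310-7347356, motif starting 44 bases before the later of its 2 listed start sites: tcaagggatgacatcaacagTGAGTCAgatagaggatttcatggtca
Mmp3, chr9:7445756-7445802, motif starting 46 bases before the start site: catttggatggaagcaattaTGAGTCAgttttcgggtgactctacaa
Mmp10, chr9:7502259-7502305, motif starting 63 bases before the start site: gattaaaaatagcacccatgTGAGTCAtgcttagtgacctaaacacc
In Mmp3, Mmp10 and Mmp13 the motif lies within 63 bases of the start. In Mmp12 this holds for the later listed start only, and the window of its other start has no motif. The letters were TGAGTCA in Mmp12, Mmp3 and Mmp10 and TGACTCA in Mmp13. Mmp3, Mmp10 and Mmp13 rose and Mmp12 did not pass. The letters TATAAA, known from core promoters, were searched on the gene's strand in the same window. They occur in Mmp3 (starting at −7 from the start site), Mmp13 (−16) and Mmp10 (−29) and in neither window of Mmp12. They occur in 7.59% of all windows and 4.50% of those of tested genes. Mmp8, which rose, and Mmp27 have neither motif in this window. A match is a description of the sequence and not a measured binding site. The search followed from the rises, so motif presence beside them is not independent of them. A role of either motif in the changes was not tested.

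Elsewhere in the family, 11 of the 17 other MMP and TIMP genes were tested, of which 2 rose (Mmp8 and Mmp10), 2 fell and 7 did not pass, with a median log2 fold change of −0.06. Of all tested genes 12.4% rose and 14.5% fell, and counts of 2 in 11 are close to these shares. Mmp23, which encodes a membrane-anchored MMP, fell from 13.8 ± 2.00 to 8.26 ± 1.72 CPM (−0.74, adjusted p = 0.0043). Mmp17, a membrane-type MMP with a lipid anchor, fell from 2.42 ± 0.428 to 1.15 ± 0.521 CPM (−1.08, adjusted p = 0.014). Its groups overlapped, with 1.84 CPM in the lowest siControl and 1.87 in the highest siPAK4 library, and its value was −0.26 with FPKM and −0.50 with TPM at a pseudocount of 1. Mmp16 (−0.59, adjusted p = 0.087), Mmp25 (−0.69, adjusted p = 0.24), Mmp28 (−0.19, adjusted p = 0.41) and Mmp11 (−0.01, adjusted p = 0.95) did not pass. Nor did Mmp15 (0.04) and Mmp24 (−0.06), both below 1 CPM. The sign for Mmp11 and Mmp24 turned with library totals, and Mmp16 passed as lower without siControl replicate 4 (−0.76, adjusted p = 0.026) or without siPAK4 replicate 3 (−0.72, adjusted p = 0.042). Timp4 had 8 counts in all 8 libraries together, so the measured inhibitors were Timp1, Timp2 and Timp3.

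Genes that control MMP activity outside the cell were mostly lower where they passed. Of 21 tested activators, inhibitors and surface partners (25 in the list), 8 fell, 3 rose and the other 10 did not pass (median log2 fold change −0.24). Of all tested genes 14.5% fell and 12.4% rose. A2m, which encodes a broad protease trap, fell from 11.5 ± 1.17 to 2.85 ± 0.713 CPM (−2.01, adjusted p = 8.7e-06). Lrp1, the endocytic receptor that clears protease and inhibitor complexes, fell from 1245 ± 126 to 711 ± 59.7 CPM (−0.81, adjusted p = 4.7e-05). Tfpi2, a Kunitz inhibitor of serine proteases such as plasmin (−1.21, adjusted p = 1.3e-05), and Ddr1, a collagen receptor kinase (−0.81, adjusted p = 0.00021), fell as well. Serpinb2, an inhibitor of plasminogen activators, rose to 236 ± 47.9 CPM in siPAK4 (1.24, adjusted p = 0.00086). Plaur, the urokinase receptor, rose (0.39, adjusted p = 0.0077), and so did the weakly expressed protease trap gene Pzp (2.28, adjusted p = 0.014, at 0.218 ± 0.184 CPM in siControl). With FPKM and a pseudocount of 1, the values were −1.01 for A2m and 0.22 for Pzp. Of 7 ADAM and ADAMTS proteases that TIMP3 is known to restrain, 6 were tested, of which 2 fell, 1 rose and 3 did not pass (median −0.16). Those that passed were Adam12 (−1.43, adjusted p = 2.4e-05), Adam10 (−0.38, adjusted p = 0.005) and Adam17, the TNF-releasing enzyme (0.25, adjusted p = 0.0056). Adam10 did not pass on the TPM scale (−0.34, adjusted p = 0.05 with the filter on low values and 0.12 without it).

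Of 9 tested cytokines and growth factors known to induce MMP transcription (10 in the list), 5 rose, 1 fell and 3 did not pass (median log2 fold change 0.52). Over all tested genes 12.4% rose and 14.5% fell. Il1b rose from 3.24 ± 1.24 to 18.7 ± 8.13 CPM (2.53, adjusted p = 0.00046), Il1a from 27.9 ± 9.26 to 73.6 ± 15.2 CPM (1.40, adjusted p = 0.0014) and Tnf from 21.4 ± 1.63 to 35.6 ± 3.44 CPM (0.73, adjusted p = 7e-05). Il6 also rose (0.90, adjusted p = 0.0029), while the growth factor gene Fgf2 fell (−0.91, adjusted p = 5.9e-05). Of 15 transcription factor genes known from MMP promoters, 6 rose and the other 9 did not pass (median 0.30). The rises of Nfkb1 (0.54, adjusted p = 5.1e-05), Cebpb (0.75, adjusted p = 5.9e-05), Ets2 (0.41, adjusted p = 0.0021) and Ets1 (0.37, adjusted p = 0.012) were among them. Of the 7 FOS and JUN genes in that list, 2 rose and 5 did not pass. The 2 that rose, named after their values were seen, were Junb (0.30, adjusted p = 0.034) and Jund (0.45, adjusted p = 0.012).

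Among 14 tested genes of matrix proteins that MMPs cut (16 in the list), 11 fell and the other 3, Vcan, Dcn and Spp1, did not pass (median log2 fold change −1.10). Over all tested genes 14.5% fell. Fn1, fibronectin, went from 3709 ± 398 to 1512 ± 238 CPM (−1.29, adjusted p = 1.5e-05) and Tnc, tenascin-C, from 2393 ± 52.5 to 647 ± 161 CPM (−1.89, adjusted p = 1e-05). The collagen genes Col5a2 (−1.09, adjusted p = 1.2e-06) and Col3a1 (−1.10, adjusted p = 6.2e-06) fell by similar amounts. The sum over these genes was 6823 to 7593 TPM in siControl and 4375 to 5059 TPM in siPAK4.

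**Figure D5:**
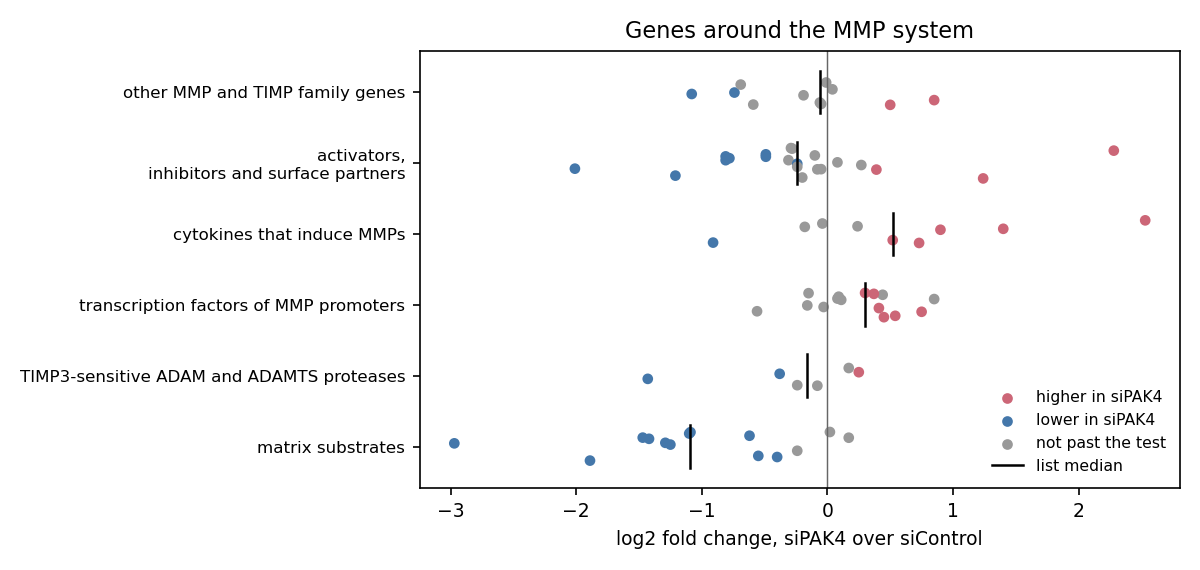
Log2 fold change of siPAK4 over siControl for the tested genes of 6 lists around the MMP system, 1 point per gene, coloured by the call, with a bar at each list's median. The substrate list lies mostly left of 0 (median −1.10), and the cytokine (0.52) and transcription factor (0.30) lists have medians right of it.

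Markers of other cells moved in the same libraries, where 14.5% of all tested genes were lower and 12.4% higher. Of 13 tested macrophage markers 8 fell and the other 5 did not pass, with summed levels of 17565 to 20162 TPM in siControl and 10331 to 14829 in siPAK4. Lyz2 alone made up most of that sum, at 15804 ± 951 TPM in siControl and 9982 ± 2028 TPM in siPAK4 (−0.69, adjusted p = 0.0054). The resident macrophage genes Vsig4 (−2.92, adjusted p = 1.5e-05) and Cd5l (−2.75, adjusted p = 2.3e-06) fell most clearly. The general markers Adgre1 (0.14, adjusted p = 0.34) and Cd68 (−0.04, adjusted p = 0.72) did not pass. In the same list Csf1r (−0.31, adjusted p = 0.019), C1qa (−2.10, adjusted p = 8.5e-05), C1qb (−2.02, adjusted p = 8.1e-05) and C1qc (−1.95, adjusted p = 0.00012) fell. All of these were named after their values were seen. Among 6 monocyte-derived macrophage markers 3 were lower and 1 higher, among them Cx3cr1 (−2.26, adjusted p = 3e-05) and Ly6c2 (1.35, adjusted p = 9.3e-05), with sums of 2105 to 2289 and 1855 to 2548 TPM. Ccr2 (−1.66, adjusted p = 0.00045) and Itgax (−0.86, adjusted p = 0.0015) also fell. The sum was mostly Gpnmb, at 1942 ± 57.0 TPM in siControl and 1900.1 ± 260.3 TPM in siPAK4, which did not pass (−0.06, adjusted p = 0.73). Ccr2, Itgax and Gpnmb were named after their values were seen. The part of these shifts in the MMP and TIMP results was not tested.

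Neutrophils are a known source of Mmp8 and Mmp9. Of their markers, S100a8 had 380 to 826 counts and Csf3r 392 to 521, while Ly6g, Elane and Retnlg had no read in any library, Mpo, S100a9, Cxcr2 and Ngp had at most 12 counts, and Camp and Ltf at most 32. Of 11 neutrophil markers 3 were tested, and edgeR called 0 of them (2 at an unadjusted p below 0.05, 1 by DESeq2 and 0 by limma-voom). The sums were 40.7 to 68.9 TPM in siControl and 62.4 to 79.0 in siPAK4, mostly S100a8. Of 11 tested stellate cell and myofibroblast markers 6 were lower and 1 higher (sums of 982 to 1189.8 and 769.7 to 972 TPM). Acta2 (−1.63, adjusted p = 1.3e-05) and Tagln (−1.67, adjusted p = 8.2e-06) were in front among those lower. The marker that rose was Hgf (0.38, adjusted p = 0.0044). The other 4 did not pass: Reln (0.17), Dcn (0.17), Rgs5 (0.33) and Colec11 (−0.27). Portal fibroblast and mesothelial markers had 6 of 9 lower and the other 3 not past the test (514 to 635 and 213 to 269 TPM), including Fbln2 (−1.34, adjusted p = 6.1e-06) and Upk3b (−2.10, adjusted p = 8.2e-06). Endothelial markers had 6 of 12 lower and 3 higher (3503 to 3703 and 1942 to 3093 TPM), with Emcn lower (−1.08, adjusted p = 1.2e-06) and Oit3 higher (0.44, adjusted p = 0.0004). Hepatocyte markers had 4 of 7 higher and 1 lower (319 to 354 and 222 to 337 TPM). That sum was nearly all transferrin (Trf, 333 ± 14.1 TPM in siControl and 269 ± 43.8 TPM in siPAK4), the marker that fell. The markers that rose were of low level, with Alb at 1.80 ± 0.572 and 8.40 ± 3.45 TPM, and among them were Alb (2.17, adjusted p = 0.00031) and Serpina1a (2.55, adjusted p = 0.0022). Of the 2 tested lymphocyte markers edgeR called 0 (0 at an unadjusted p below 0.05 and 0 by DESeq2 or limma-voom), and of the 3 tested cholangiocyte markers also 0 (1 at an unadjusted p below 0.05 and 0 by DESeq2 or limma-voom), with sums of at most 2.04 and 6.12 TPM. For comparison with these counts, 14.5% of all tested genes were lower and 12.4% higher. Whether these shifts in markers contribute to the lower TIMP and Mmp2 levels was not tested.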

How the data were processed

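RNA was sequenced from 8 samples with a stranded poly(A) kit, per the labels' protocols. The submitters' processing notes name the aligners HISAT2 2.1.0 and Bowtie2 2.3.4.1, the assembler StringTie 2.1.3b, FastQC 0.11.7, bcl2fastq 2.20.0 and build mm10. How reads were counted, with which strand setting, and what was done with multi-mapping reads is not given in the sources. The authors deposited 1 table of raw read counts, FPKM and TPM per gene: the counts were used as deposited, the deposited TPM to compare levels between genes, and the deposited FPKM in alternative fits.

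Genes were kept by filterByExpr (minimum count 10), scaled by TMM and tested with the quasi-likelihood test of edgeR 4.0.16 (R 4.3.3, robust), siPAK4 against siControl, with Benjamini-Hochberg adjustment over 17975 genes and a threshold of 0.05. CPM are on the TMM-scaled library size, log2 fold changes compare siPAK4 with siControl, and intervals use the F statistic. Alternatives used limma 3.58.1 and DESeq2 1.42.0. Pairs of libraries within a group differed by more than sampling noise (chi-square per degree of freedom 13.7 to 74.4), so none was taken for a library deposited more than once; this does not show that they are separate cultures. All samples carry the same batch label, and all value columns were matched by library name.

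The 10 genes and all lists were chosen with earlier results of these data known. The genes named were the 10, Pak4, every tested family gene, up to 4 lower and 4 higher genes of each list by smallest p, up to 2 per marker list and the 3 nearest profiles of each of the 10. Other marker genes, such as Lyz2, Trf, Gpnmb and Hgf and those given by level or count only, were named after their values were seen. Coordinates are RefSeq's (GRCm38.p6), overlaps between genes GENCODE M21's (same build), both counted from 1.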

Additional observations from a re-analysis of the deposited data

Results flagged for a closer look

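Among 114 groups of 4 libraries (57 genes in 2 groups, by CPM), 3 had a library farther from the rest than the 95% critical value of Dixon's test allows, which chance alone gives in about 1 of 20 groups. Mmp14 had 363 CPM in siPAK4 replicate 3, against 452 to 467 in the other siPAK4 libraries. Mmp11 had 7.60 CPM in the same library, against 10.4 to 10.8. Col3a1 had 87.6 CPM in siPAK4 replicate 1, against 99.1 to 101 in the others.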

How the results depend on the processing

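The falls of Timp1 (log2 fold change −0.67 to −0.50 over 20 alternatives), Timp2 (−0.85 to −0.69), Timp3 (−1.04 to −0.85) and Mmp2 (−0.48 to −0.32) and the rise of Mmp13 (0.34 to 0.53) kept direction and call under every alternative run. The labels do not say whether the replicate numbers pair the samples. Same-numbered libraries had correlations of deviations from the group mean of 0.131, −0.0478, 0.196 and −0.121. Only siControl replicate 3 and siPAK4 replicate 1 correlated best with their own number. A weak pairing could be missed with 4 libraries per group. With the replicate number as a block, 1 of the 10 genes was higher (Mmp3 lost its call, adjusted p = 0.054), Mmp19 (adjusted p = 0.046) and Mmp16 (0.047) passed as lower, and Pzp did not pass (0.05). The number of the 10 genes called higher was also 1 with TPM, a pseudocount of 1 and no filter (Mmp3, adjusted p = 0.057), where Ets1 (0.096) and Pzp (0.055) were lost as well. Leaving out 1 library gave 1 to 2 higher and 4 to 5 lower of the 10, and 3543 to 5494 of all genes. TPM without a filter gave 2953 of all genes against 4832, 3 transcription factor genes higher against 6, and 1 TIMP3-sensitive protease lower against 2, as did TPM with the filter (1). DESeq2 called 1 transcription factor gene lower against 0, leaving out 1 library gave 0 to 1 (1 without siControl replicate 4), and library totals gave 1 substrate gene higher against 0. The cause of these shifts was not tested.

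With FPKM and a pseudocount of 1, the log2 fold changes of weakly expressed markers were smaller: Vsig4 −1.76, Cx3cr1 −0.51, Alb 1.35 and Serpina1a 0.35.

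Sign changes were seen only in genes that did not pass. With library totals the log2 fold change was 0.04 for Mmp14, 0.08 for Mmp11, 0.03 for Mmp24, 0.04 for Mmp27, 0.03 for Zc3h13, 0.08 for Bptf and 0.07 for Phf13. With FPKM and a pseudocount of 1 or 0.1 it was 0.04 and 0.04 for Mmp14, 0.05 and 0.06 for Mmp11, 0.00 and 0.03 for Mmp24, 0.03 and 0.03 for Mmp27, 0.03 and 0.03 for Zc3h13, 0.04 and 0.05 for Bptf, and 0.06 and 0.07 for Phf13. With TPM, filtered or not, it was 0.01 for Mmp11, 0.00 for Mmp24 and 0.02 for Phf13. Limma-voom gave −0.03 for Mmp15 and 0.13 for Mmp24, and the replicate block −0.01 and 0.04. Leaving out 1 library gave −0.05 to 0.19 for Mmp12, −0.11 to 0.02 for Mmp14, −0.06 to 0.09 for Mmp11, −0.19 to 0.23 for Mmp15, −0.33 to 0.39 for Mmp24 and −0.16 to 0.03 for Mmp27. The same gave −0.09 to 0.11 for Plek, −0.04 to 0.20 for Samsn1, −0.03 to 0.18 for Dock10, −0.11 to 0.00 for Zc3h13, −0.07 to 0.07 for Bptf and −0.07 to 0.04 for Phf13. Depth limits only genes of a few counts, such as Timp4 and Mmp1b.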

Other observations

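The genes whose profiles over the 8 libraries were nearest to each of the 10 were found by the root mean square (RMS) difference of log2 CPM after centring each gene on its mean. For Timp3 they were Ccnd2 (RMS 0.0685), Gatm (0.0787) and Col6a3 (0.0791), against 0.498 for the spread of Timp3 itself. For Timp2 (own spread 0.413) they were Gpr39 (0.0631), Col12a1 (0.0724) and Neto2 (0.0750), and for Timp1 (0.348) Tmem45a (0.0651), Perp (0.0738) and Sdc2 (0.0839). Col6a3 and Col12a1 encode collagen chains and Sdc2 a cell-surface proteoglycan. For Mmp2 (0.229) they were Rbms3 (0.0453), Fkbp7 (0.0572) and Pik3r3 (0.0590).

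For Mmp3 (0.463) the nearest were Enpp2 (0.117), 9330151L19Rik (0.136) and Clmp (0.136), and for Mmp13 (0.259) Gtdc1 (0.0707), Nav3 (0.0759) and Ttc26 (0.0763). For Mmp12 (0.202) they were Plek (0.0406), Samsn1 (0.0457) and Dock10 (0.0482). They share the high value of Mmp12 in siPAK4 replicate 3, which follows from their choice by profile over the same libraries. For Mmp9 (0.186) they were Slc17a9 (0.0624), Tmem69 (0.0725) and Ggt7 (0.0758), for Mmp14 (0.137) Zc3h13 (0.0245), Bptf (0.0266) and Phf13 (0.0335), and for Mmp19 (0.181) Nceh1 (0.0390), Rnf13 (0.0390) and Ncoa4 (0.0392). Among the 10 genes, siPAK4 replicate 1 was the lowest siPAK4 library for 7 and siControl replicate 4 the lowest siControl library for 5.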
